A study of Mus musculus with 8 samples.

Results

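Cytosolic ribosomal protein genes were examined in esophagus tissue of 4 mice that lack monoacylglycerol lipase (MGL KO) and 4 wild-type mice (WT), a line bred with its WT littermates. MGL, encoded by Mgll, degrades the endocannabinoid 2-arachidonoylglycerol. The deletion was carried by the whole animal, and the mice of both groups were healthy. Per the study's methods, young adult males and females were used, and the labels give no age or sex for single libraries. Poly(A)-selected RNA of the frozen tissue was sequenced, and reads were counted per gene symbol. Genes were taken by symbol: names of the Rpl and Rps series, plus Rpsa, Rplp0, Rplp1 and Rplp2, without pseudogene symbols or S6 kinases, and with at least 80 counts summed over the 8 libraries. This gave 85 of 32849 listed symbols. Of 89 symbols of this form, 4 fell below the minimum, namely Rpl10l and Rps12l1 with 0 counts, Rpl39l with 3 and Rpl32l with 48. Just inside it were Rpl24 and Rps3a3, each with 88 counts, and Rpl6l with 130. All 85 genes passed the filter on low counts and were tested among 14864 genes.

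Each ribosome is a small (40S) and a large (60S) subunit of RNA and many different proteins, most of them needed in equal numbers and encoded by 1 main gene each. Ribosomal protein mRNAs belong to the TOP mRNAs, which start at a cytosine followed by a run of pyrimidines and whose translation is controlled by the kinase complex mTORC1. Paralogs such as Rpl3l, known from striated muscle, can take the place of the main protein. The libraries report mRNA and not translation or protein. In the mouse annotation GENCODE release 39 on GRCm39, 46 of the 85 genes belong to the 60S and 31 to the 40S subunit, 5 are paralogs and 3 (Rps3a2, Rps3a3 and Rpl6l) are annotated as pseudogenes.

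Sequences around the transcription start are shown because the pyrimidine run is the feature these genes are known to share. RefSeq promoter sequences of GRCm38.p6 were found for 61 of the 85 genes, in 73 entries. The letters CTTTC on the gene's own strand lay within 15 bases on either side of the annotated start in 16 of the 73 entries (21.9%) and in 4.05% of all 32851 entries. The windows below are examples and do not show how often these letters occur over all the entries. In them, the 16th base is the annotated first transcribed base and CTTTC is in capitals.
Rpl35, chr2:39005117-39005146, reverse strand: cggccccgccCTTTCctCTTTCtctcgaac
Rpl28, chr7:4792950-4792979, forward strand: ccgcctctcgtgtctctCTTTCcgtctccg
Rplp2, chr7:141447636-141447665, forward strand: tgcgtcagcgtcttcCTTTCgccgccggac
Rpl38, chr11:114668565-114668594, forward strand: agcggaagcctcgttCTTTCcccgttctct
Rps6, chr4:86857353-86857382, reverse strand: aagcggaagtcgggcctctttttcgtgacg
Rpl7l1, chr17:46782642-46782671, reverse strand: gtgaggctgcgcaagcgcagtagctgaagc
Rpl3l, first of its entries, chr17:24727811-24727840, forward strand: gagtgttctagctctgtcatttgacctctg
The longest run of pyrimidines in these windows was 18 bases in Rpl35, 11 in Rpl28, and 10 in Rplp2, Rpl38 and Rps6, where the run lacks the letters CTTTC. In the paralogs it was 2 bases in Rpl7l1 and 5 in Rpl3l. The letters CCGGAAG, the core bound by ETS factors, were searched on both strands of the 300 bases from 250 before to 50 after the start, and lay in 35.6% of the entries of these genes against 8.86% of all entries. TATAAA on the gene's own strand lay within the 50 bases before the start in 1 of the 73 entries (1.37%) and in 2.63% of all entries.

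The deposited counts summed to between 13479069 and 17090152 per library. Mgll had 13.7 ± 1.54 CPM (counts scaled to library size; SD, n = 4) in MGL KO and 81.2 ± 9.97 (SD, n = 4) in WT, with no overlap. Its log2 fold change was -2.57 (SE 0.13, adjusted p = 0.000133, edgeR's quasi-likelihood test). The tissue showed markers of squamous epithelium and striated muscle, with Krt5 at 1257 CPM or more and Acta1 at 14494 CPM or more in every library. The makeup differed between libraries of the same group. The summed level of 14 skeletal muscle markers was 97802 CPM in MGL KO replicate 2 and 83711 CPM in WT replicate 3, against 40313 to 65176 CPM in the other 6. The same pair had the lowest sums of 10 basal squamous markers, 3694 and 4032 CPM, against 5537 to 6529 CPM. MGL KO replicate 4 had the highest sums of leukocyte markers (1689 CPM) and airway ciliated markers (1595 CPM), and the ciliated gene Foxj1 reached 228 CPM there against a median of 0.575 CPM over all libraries. The leukocyte sum was also high in WT replicate 1, at 1381 CPM. The airway ciliated markers summed to 815 CPM or more in the MGL KO libraries and to 732 CPM or less in the WT libraries. Of these 14 markers, 8 were tested. Their median log2 fold change (MGL KO minus WT) was 3.03, and it was 0.026 without MGL KO replicate 4. In whole tissue, fewer cells of a type and less RNA per cell cannot be told apart.

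Levels of the ribosomal protein genes were compared per length, as mean normalized CPM per kb of coding sequence over the 8 libraries. The 77 main genes of both subunits had a median of 746, with quartiles of 528 and 939, and 65 of them lay within 2-fold of the median. The median was 716 for the 60S and 812 for the 40S genes. The highest levels were those of Rpl41 (2337), which encodes the smallest ribosomal protein, Rplp1 (1774), Rps2 (1546), Rps14 (1407) and Rplp0 (1373). The first rank of Rpl41 rests on division by coding length alone, which is 75 bases in this gene. Before that division its mean was 175 CPM, beside 1359 CPM for Rps2. Rplp0, Rplp1 and Rplp2 encode the stalk of the large subunit, which recruits translation factors, and Rplp2 was counted at 721.

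At the low end, 4 main genes lay more than 10-fold below the median. These were Rpl24 at 1.45, Rps10 at 11.4, Rpl13a at 13.2 and Rpl23a at 20.6 CPM per kb. For Rpl24, Rps10 and Rpl13a, 83.4%, 92.1% and 97.5% of the coding bases lie inside another gene model on the same strand, while 73 of the 77 main genes have no such base. For Rpl23a, every 75-base window of the coding sequence also occurs elsewhere in GRCm39. Ribosomal protein genes have many processed copies in the genome, and reads that fit several places can be dropped or split by a counting program, which the sources used here do not name. Its part in the counts of these 4 genes was not tested.

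Genes with fully shared sequence were mostly counted at levels like those of the others. All windows were shared in 26 of the 77 main genes, whose median was 671 CPM per kb, against 737 in the 36 genes with 50% to under 100% of windows shared and 810 in the 15 genes with under 50%. The 237 listed symbols that mark pseudogenes of these families by "-ps" held counts equal to 0.358% of those of the 85 genes. Rpl35 (103), Rpl19 (131) and Rpl30 (140) were the next lowest main genes, with 72.3% to 90.9% of windows shared.

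**Figure D1:**
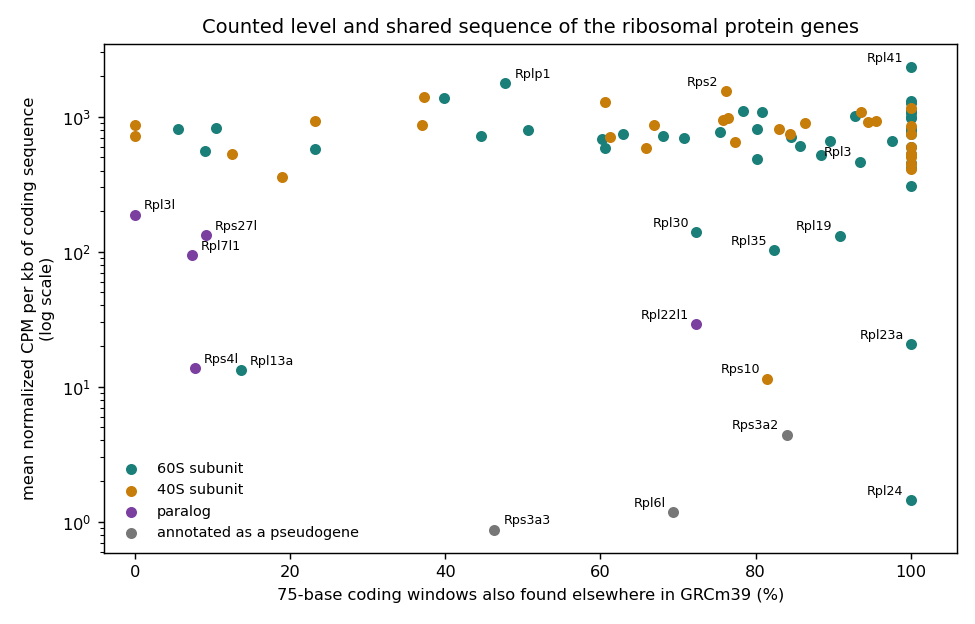
Mean normalized CPM per kb of coding sequence over the 8 libraries (log scale) against the percent of 75-base coding windows that also occur elsewhere in GRCm39, for 85 genes coloured by class. Most main genes lie near 746 CPM per kb at any percent of shared windows, and Rpl24, Rps10, Rpl13a and Rpl23a lie far below.

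The comparison of MGL KO with WT asked whether loss of the lipase came with a change in ribosomal protein mRNA. None of the 85 genes was called at an adjusted p of 0.05 (quasi-likelihood test of edgeR, adjusted by the Benjamini-Hochberg method over all tested genes), where 0.0471% of all tested genes were called. Their lowest adjusted p was 0.522, and none was called by edgeR's exact test, DESeq2 or limma-voom, which called 0.437%, 0.922% and 0.168% of all tested genes. At an unadjusted p of 0.05, 1 gene was higher and 0 were lower, that is 1 of 85 where the background was 8.65% (4.35% higher and 4.29% lower). The direction of these few calls turned with the scaling and with 1 library. With library size alone in place of TMM factors, which correct for a few highly expressed genes taking up reads, 0 were higher and 3 were lower (Rpl23a, Rpl39 and Rps29), beside 2.95% and 3.69% of all tested genes. Without MGL KO replicate 2, 1 was higher and 3 were lower (Rpl23a, Rpl3l and Rps21), beside 5.31% and 4.00%. By limma-voom 1 was higher and 2 were lower, beside 5.44% and 5.93%. The median log2 fold change (MGL KO minus WT) was -0.02, with quartiles of -0.07 and 0.02, against a median of 0.02 and quartiles of -0.17 and 0.17 for all tested genes. Values below 0 were seen in 53 of the 85 genes, beside 47.0% of all tested genes. With library size alone they were seen in 74, beside 54.7%, and the median was -0.08, beside -0.03 for all tested genes. Single libraries turned the count as well, to 76 without MGL KO replicate 2, 30 without replicate 3 of that group and 23 without its replicate 4. The sign of this median changed with single libraries: leaving out MGL KO replicate 3 gave 0.03, MGL KO replicate 4 gave 0.04 and WT replicate 3 gave 0.01.

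The intervals bound what could have been missed. The 95% interval of the log2 fold change lay inside -0.5 to 0.5, or 1.41-fold either way, for 74 of the 85 genes, while this held for 34.4% of all tested genes. For 82 it lay inside -1 to 1. The exceptions to the narrower range were Rpl3, Rpl12, Rpl23a, Rpl24, Rpl35, the paralogs Rpl3l, Rpl22l1 and Rps27l, and the 3 pseudogenes. The 60S genes had a median log2 fold change of -0.02 and the 40S genes of -0.02, with 31 of 46 and 18 of 31 below 0. Of the 77 main genes, 66 had a log2 fold change of under 0.1 in size. The 15 main genes with under 50% of windows shared ranged from -0.16 to 0.12.

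**Figure D2:**
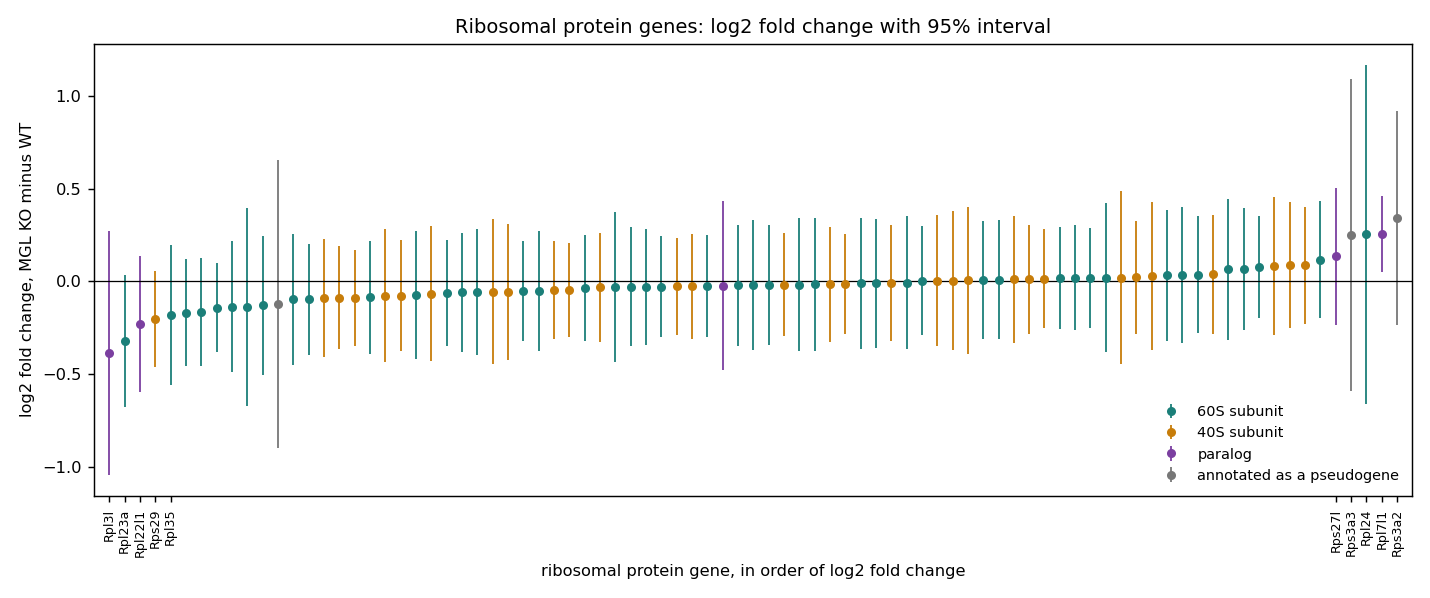
Log2 fold change (MGL KO minus WT) of each of the 85 genes with its 95% interval, in order of size and coloured by class, with the 5 lowest and 5 highest genes named. Values run from -0.39 for Rpl3l to 0.34 for Rps3a2, and only the interval of Rpl7l1 lies wholly on one side of 0.

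Rpl7l1, a paralog of Rpl7 that acts in the assembly of the large subunit, was the gene with the unadjusted call. The gene spans 47084824 to 47093606 of chromosome 17 (GRCm39, reverse strand). Its level was 76.0, 86.1, 69.6 and 72.2 CPM in MGL KO replicates 1 to 4 and 63.6, 62.7, 61.1 and 66.8 CPM in the WT replicates. All MGL KO libraries lay above all WT libraries, as in 2.72% of all tested genes, and it was the only one of the 85 free of overlap in either direction, beside 6.02% of all tested genes. The log2 fold change was 0.26 (SE 0.09, 95% interval 0.05 to 0.46, unadjusted p = 0.0202, adjusted p = 0.522 in edgeR's quasi-likelihood test), so it did not pass. The unadjusted p was above 0.05 with library size alone (0.0540), with the replicate number as a block (0.0593) and without WT replicate 2 (0.0523), where the log2 fold change was 0.20, 0.25 and 0.25. Rpl7 itself had 561 ± 89.2 CPM in MGL KO and 558 ± 36.2 CPM in WT (SD, n = 4).

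The other genes with the largest higher values were Rps3a2, Rpl24, Rps3a3 and Rps27l. Rps3a2, annotated as a pseudogene, had 3.90 ± 1.06 CPM in MGL KO and 3.06 ± 0.378 CPM in WT (SD, n = 4), a log2 fold change of 0.34 (SE 0.25) that was 0.18 without MGL KO replicate 2. Rpl24 and Rps3a3 had under 1.2 CPM in every library, with log2 fold changes of 0.26 (SE 0.40) and 0.25 (SE 0.37). Single libraries moved both: Rpl24 was at 0.0040 without MGL KO replicate 1 and at 0.48 without WT replicate 4 (0.46 when replicate 2 of MGL KO was left out), and Rps3a3 was at 0.10 without MGL KO replicate 1, 0.11 without WT replicate 1 and 0.59 without WT replicate 2. Rps27l, a paralog of Rps27 known as a target of p53, had 57.9 CPM in MGL KO replicate 2 and 34.9 to 46.9 CPM in the other libraries. Its log2 fold change of 0.14 (SE 0.16) became -0.027 without that library.

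Among the genes with the largest lower values, Rpl23a, a 60S gene on chromosome 11 from 78071753 to 78074425 (reverse strand), had 7.84, 10.5, 8.57 and 7.48 CPM in MGL KO and 11.3, 10.05, 10.9 and 10.6 CPM in WT. The groups overlapped through MGL KO replicate 2 alone, and the log2 fold change was -0.32 (SE 0.16, adjusted p = 0.619, edgeR's quasi-likelihood test). Rpl22l1, the paralog of Rpl22, had 8.60 to 11.3 CPM in MGL KO and 9.98 to 13.7 CPM in WT (log2 fold change -0.23, SE 0.16, and -0.13 without WT replicate 3). Rps29 had 62.2 to 77.5 CPM in MGL KO and 72.9 to 91.5 CPM in WT (-0.20, SE 0.12, and -0.12 without WT replicate 3). Rpl35 had 30.9 to 45.0 CPM in MGL KO and 34.0 to 50.6 CPM in WT (-0.18, SE 0.17). This value was -0.31 without MGL KO replicate 2 and -0.047 without WT replicate 3 (-0.12 when replicate 4 of MGL KO was left out). None of the 4 passed the test, and in each the groups overlapped.

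Ribosomal proteins with known roles outside the subunits had overlapping groups as well. Rpsa, also known as the laminin receptor, had 960 ± 142 CPM in MGL KO and 970 ± 32.3 CPM in WT. Rps6, the substrate of the S6 kinases, had 391 ± 46.6 and 387 ± 37.8 CPM. Rpl5 had 519 ± 58.5 and 541 ± 45.8 CPM, and Rpl11 had 408 ± 62.5 and 433 ± 27.9 CPM. Both bind the p53 regulator MDM2 when ribosome assembly is disturbed. Rps27a, made as a fusion with ubiquitin, had 283 ± 50.3 and 275 ± 13.9 CPM (SD, n = 4 in each group throughout). For the stalk, Rplp0 had 1297 ± 185 and 1314 ± 89.2 CPM, Rplp1 had 600 ± 79.4 and 614 ± 18.7 CPM, and Rplp2 had 228 to 310 CPM in MGL KO and 238 to 246 CPM in WT. In all 8 genes the mean differed by less than the SD of the MGL KO libraries.

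With TMM factors, most of the 85 genes lay on the same side of their own means in each MGL KO library. Their summed expression was 32319, 35635, 27234 and 25792 CPM in MGL KO replicates 1 to 4 and 30854, 31159, 31204 and 29325 CPM in the WT replicates. The means, 30245 ± 4555 CPM and 30635 ± 887 CPM (SD, n = 4), differed by less than the spread. With this scaling the lowest and highest libraries were both MGL KO, while as a share of all counts the highest was WT replicate 1 at 3.34%. The difference of the means was -391 CPM with TMM factors, -183 CPM with RLE factors, the kind DESeq2 uses, -821 CPM with upper quartile factors and -1680 CPM with library size alone. With TMM factors it was -2187 CPM without MGL KO replicate 2, -1082 CPM without replicate 1 of that group, 613 CPM without its replicate 3 and 1094 CPM without its replicate 4. In MGL KO replicates 1 and 2, 75 of the 85 genes in each lay above their own mean on the log2 scale, while 6 did in replicate 3 and 4 in replicate 4. In the WT replicates 39, 70, 60 and 17 did. Over all tested genes, 46.9% to 51.1% lay above their mean in any library. In MGL KO replicate 2 the median deviation was 0.24 for the 60S and 0.25 for the 40S genes, and in replicate 4 it was -0.26 and -0.21. In WT replicate 3 it was 0.12 for the 60S and 0.048 for the 40S genes.

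The SD of log2 CPM was larger among MGL KO than among WT libraries in 78 of the 85 genes (91.8%), with medians of 0.23 and 0.12. Over all tested genes it was larger in 70.4%, with medians of 0.29 and 0.20. The difference in spread was not tested, and its size rested on the scaling. With library size alone the count was 51 of 85, which is a smaller share than the 72.3% of all tested genes with that scaling, and the medians were 0.13 and 0.11. The factor of MGL KO replicate 2, the library richest in skeletal muscle markers, was 0.823, and its median deviation went from 0.24 to -0.04. The share of all counts that fell on the 85 genes was 2.78% to 3.22% in MGL KO and 2.94% to 3.34% in WT.

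**Figure D3:**
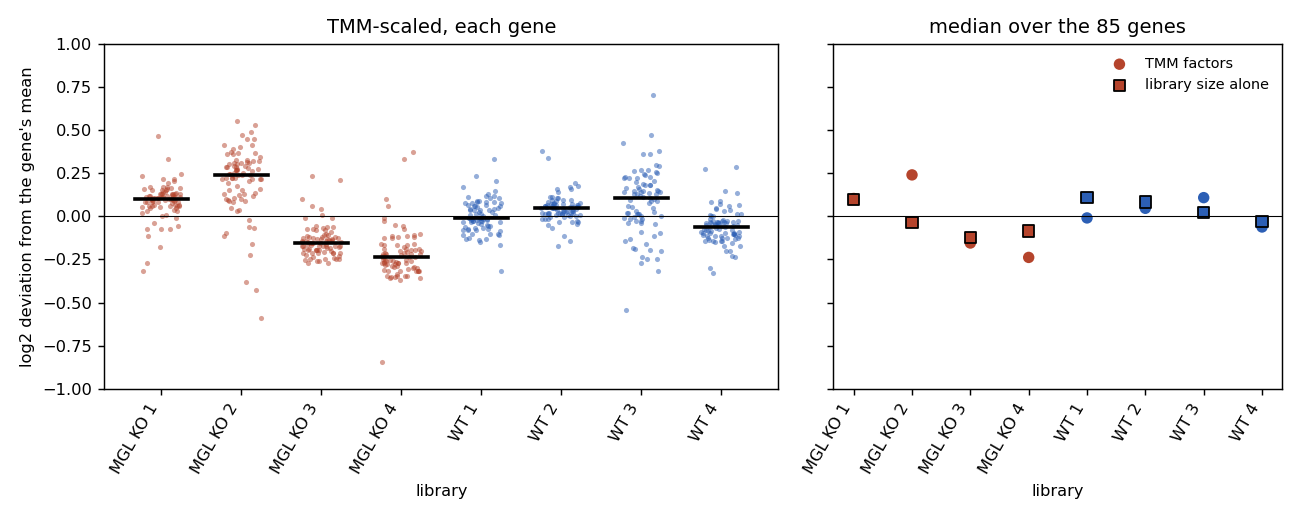
Left, deviation of each of the 85 genes from its own mean in log2 normalized CPM, by library, with the median as a bar. Right, the medians under TMM factors (circles) and library size alone (squares). Red is MGL KO and blue is WT, and the MGL KO medians run from -0.24 to 0.24 with TMM factors and from -0.12 to 0.10 with library size alone.

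Within groups, the genes that departed most from the median of the 85 were Rpl3, with a residual SD of 0.50 on the log2 scale, Rpl24 (0.41), Rps4l (0.40) and Rpl3l (0.35). Rpl24 and Rps4l were counted at 0.681 and 10.8 CPM on average, while Rpl3 and Rpl3l were counted at 564 and 230 CPM. RPL3 sits next to the peptidyl transferase centre of the large subunit, and Rpl3l encodes its counterpart in striated muscle. Rpl3 lies on chromosome 15 from 79961825 to 79976069 (reverse strand) and Rpl3l on chromosome 17 from 24946751 to 24955119 (forward strand). Their coding sequences of 1209 and 1221 bases were identical at 74.8% of 1202 aligned bases, and no 75-base window of Rpl3l occurred elsewhere in the genome. The first 60 coding bases show how the 2 genes differ, with the 13 unlike bases in capitals.
Rpl3: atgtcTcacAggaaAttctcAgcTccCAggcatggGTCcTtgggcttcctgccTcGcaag
Rpl3l: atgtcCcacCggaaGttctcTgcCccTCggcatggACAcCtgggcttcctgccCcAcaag

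Rpl3 had 650, 364, 546 and 588 CPM in MGL KO and 691, 628, 377 and 664 CPM in WT. Its 2 low values were in MGL KO replicate 2 and WT replicate 3, the libraries with the highest skeletal muscle and lowest basal squamous sums. Rpl3l had 176, 317, 184 and 122 CPM in MGL KO and 199, 245, 357 and 242 CPM in WT, and was highest in that same pair. The Rpl3l to Rpl3 ratio, which no scaling can change, was 0.870 and 0.947 in these 2 libraries and 0.207 to 0.389 in the other 6. By group it was 0.421 ± 0.304 in MGL KO and 0.497 ± 0.303 in WT (SD, n = 4). The difference of the mean log2 ratio was -0.31, and an exact two-sided permutation test gave p = 0.514, where 0.0286 is the smallest p that 4 against 4 allow. Without WT replicate 3 the difference was 0.054.

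In the main fit of all libraries, the log2 fold change of Rpl3l was the lowest of the 85, at -0.39 (SE 0.29, adjusted p = 0.714, edgeR's quasi-likelihood test). That of Rpl3 was -0.14 (SE 0.24). Leaving out MGL KO replicate 2 moved Rpl3l to -0.70, MGL KO replicate 4 to -0.21 and WT replicate 3 to -0.19. In the last 2 fits Rpl23a was lower, at -0.26 and -0.30. Rpl23a was also lower with the length and GC correction, at -0.38 beside -0.37 for Rpl3l. Rpl3 was at 0.014 without MGL KO replicate 2 and at -0.29 without WT replicate 3. With the mean log2 level of the skeletal muscle markers as a covariate, the value of Rpl3l was -0.43 (SE 0.11, unadjusted p = 0.00322) and its adjusted p of 0.186 still missed the threshold. The same fit gave unadjusted p-values under 0.05 for 2 other genes, Rpl23a (-0.33) and Rpl7l1 (0.26), neither of which passed after adjustment. In this fit 1 of the 85 was thus higher and 2 were lower, beside 6.65% and 7.07% of all tested genes. The basal squamous covariate gave unadjusted calls for the same genes, beside 6.06% higher and 6.63% lower.

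**Figure D4:**
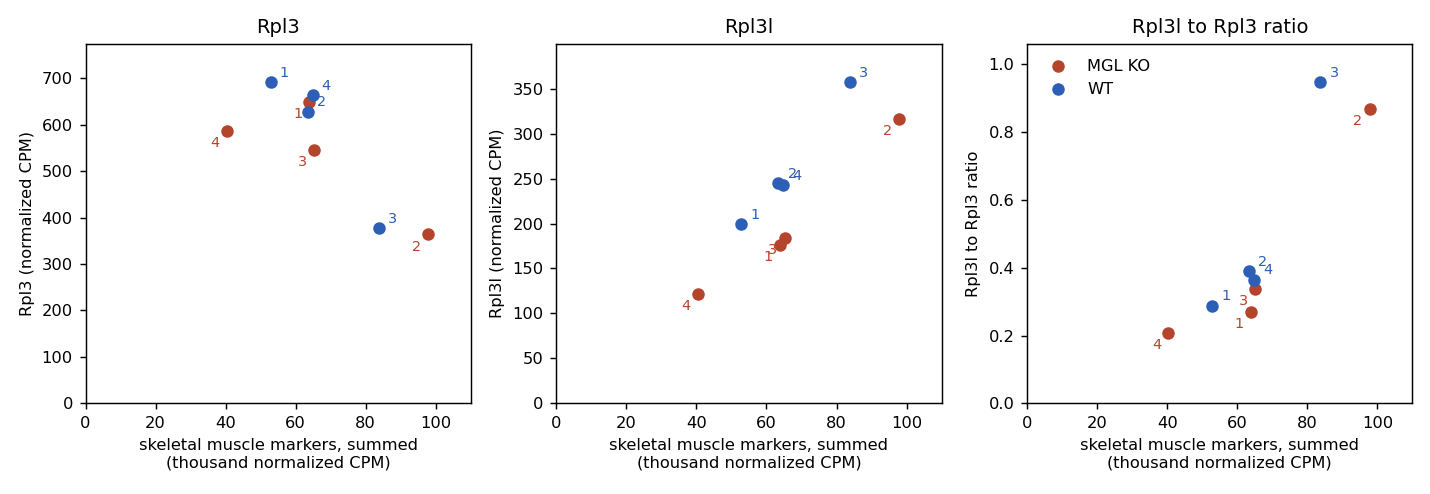
Rpl3, Rpl3l and their ratio in each library against the summed skeletal muscle markers, with the replicate number beside each point. Rpl3 is lowest and Rpl3l and the ratio are highest in MGL KO replicate 2 and WT replicate 3, which have the largest muscle sums.

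As a share of the counts of all 85 genes, which is also free of scaling, Rpl3 made up 1.02% in MGL KO replicate 2 and 1.21% in WT replicate 3, against 2.00% to 2.28% in the other libraries. Rps3 and Rps4x, chosen after their values were seen, did likewise to a lesser degree. Rps3 made up 1.82% and 1.62% in this pair against 2.04% to 2.42%, and Rps4x, the X-linked form of a 40S protein, 1.91% and 1.86% against 2.26% to 2.57%. The part of tissue makeup in these values was not tested.

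The other paralog pairs were of unequal level. Per kb of coding sequence, Rps27l (132) was counted below Rps27 (505), Rpl7l1 (94.5) below Rpl7 (691), Rpl22l1 (29.0) below Rpl22 (560) and Rps4l (13.7) below Rps4x (876), while Rpl3l (189) came nearest to its partner Rpl3 (466). Rpl10l, known from the testis, had 0 counts beside 80489 of Rpl10, where a count of 0 allows up to 0.167 to 0.271 CPM per library. Rpl39l, also a testis form, had 3 counts in all beside 15381 of Rpl39. Rps27 and Rps27l are identical at 76.2% of 252 aligned coding bases. Their first 60 coding bases, with the 18 unlike ones in capitals, are shown for comparison.
Rps27: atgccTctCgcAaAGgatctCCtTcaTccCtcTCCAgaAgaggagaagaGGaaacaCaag
Rps27l: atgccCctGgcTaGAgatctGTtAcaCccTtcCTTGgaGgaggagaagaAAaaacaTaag

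Ribosomal protein genes outside the naming form were compared too. Fau, the ubiquitin-like fusion that encodes a 40S protein, had 271 ± 35.4 CPM in MGL KO and 265 ± 18.3 CPM in WT. It did not pass the test, nor did any of 3 tested genes that the pattern also left out, whose log2 fold changes ran from -0.06 to 0.16.

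The machinery around the ribosome had no called gene in 7 lists. Of 21 elongation and TOP mRNA genes, 0 passed and 17 had values above 0, with a median log2 fold change of 0.11. The elongation factors Eef1a1 (3291 ± 262 CPM in MGL KO, 3306 ± 659 CPM in WT) and Eef2 (3168 ± 346 and 2928 ± 262 CPM) had means that differed by less than the larger SD. Tpt1, a TOP mRNA, had 1819 ± 629 and 1654 ± 208 CPM, Pabpc1, the poly(A)-binding protein, 491 ± 28.4 and 488 ± 54.9 CPM, and Rack1, a scaffold on the 40S subunit, 571 ± 50.3 and 584 ± 40.2 CPM. All 23 initiation factors had values above 0 and none passed, with a median of 0.14, where 47.0% of all tested genes had values below 0. This median was 0.06 without MGL KO replicate 2, and that of the elongation and TOP genes was then -0.001. With library size alone 19 of the 23 and 14 of the 21 had values above 0, and the medians were 0.087 and 0.047, while 54.7% of all tested genes had values below 0. The 9 snoRNA host genes, noncoding or short transcripts whose introns carry small nucleolar RNAs, had a median of -0.13, which was -0.20 without MGL KO replicate 1 and -0.040 without WT replicate 3. Gas5, one of them and itself a TOP RNA, had 68.8 to 84.7 CPM in MGL KO and 70.2 to 92.8 CPM in WT.

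Of 34 ribosome biogenesis factors, 0 passed and the median was 0.07, which was 0.036 without MGL KO replicate 2 and 0.14 when replicate 4 was left out instead. It was 0.015 with library size alone. Unadjusted p-values under 0.05 were found for 3, all higher, where 4.35% of all tested genes were. They were Rrs1 (33.7 to 38.7 CPM in MGL KO, 30.2 to 31.2 CPM in WT), Rrp12 (45.1 to 58.7 and 37.2 to 49.6 CPM) and Aen, a p53-responsive nuclease (42.7 to 50.8 and 34.4 to 41.3 CPM). The groups overlapped for Rrp12 and not for the other 2, where 2.72% of all tested genes had every MGL KO library above every WT library. Genes picked by a low p-value cannot be set like for like against that share. The 12 genes of the RNA polymerase I machinery, which makes ribosomal RNA, had a median of 0.11 with 0 unadjusted calls, and of 0.062 without MGL KO replicate 2 and 0.068 with library size alone. Of 26 mTORC1 and MYC regulators, 0 passed, the median was -0.01 (-0.05 with library size alone), and 3 had an unadjusted p under 0.05, all higher, beside the same 4.35% of all tested genes. These were the RNA-binding protein gene Larp4 (49.4 to 65.6 CPM in MGL KO, 44.1 to 49.2 CPM in WT) and the stress-responsive mTORC1 inhibitors Ddit4 (33.1 to 60.7 and 15.5 to 48.8 CPM) and Sesn2 (8.33 to 10.7 and 5.85 to 8.26 CPM). The groups overlapped for Ddit4 and not for the other 2, beside the same 2.72% and with the same limit. Myc had 41.0 ± 4.32 CPM in MGL KO and 43.5 ± 3.67 CPM in WT. The 78 mitochondrial ribosomal protein genes, a list added later, had a median of 0.13 with 0 called, which became -0.07 without MGL KO replicate 2 and 0.067 with library size alone.

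**Figure D5:**
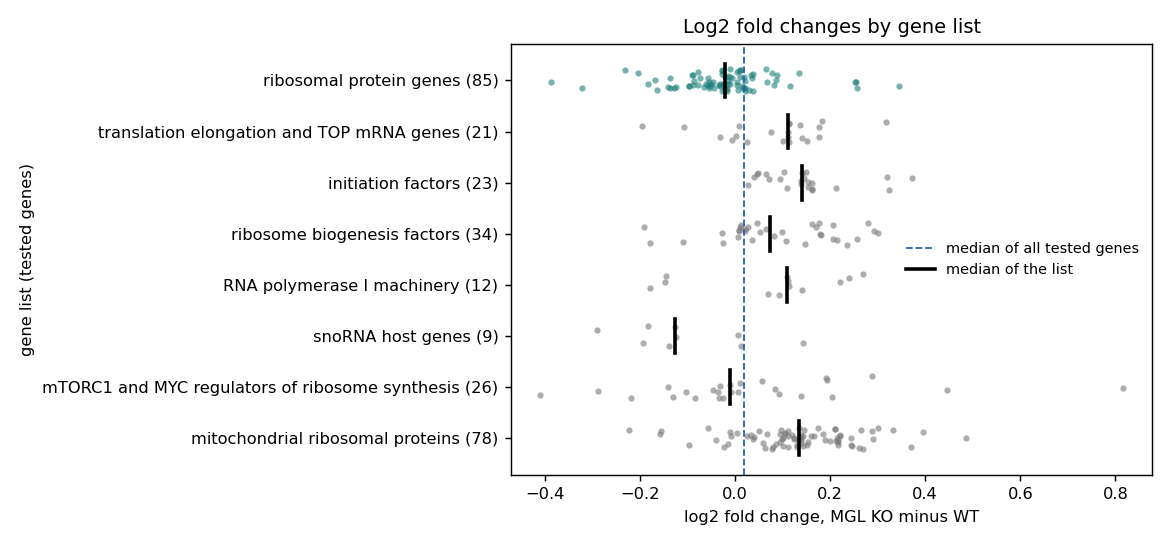
Log2 fold changes (MGL KO minus WT) of the tested genes of each list, with the list's median as a black bar and the median of all tested genes (0.02) as a dashed line. The ribosomal protein genes centre on -0.02, and the medians of the other lists run from -0.13 to 0.14.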

How the data were processed

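Per the labels and the study's methods, poly(A)-selected RNA was sequenced on Illumina NovaSeq instruments. The authors checked reads with FastQC 0.11.9, trimmed them with Cutadapt, aligned them to GRCm39 with STAR 2.7.10b (versions from the submitters' processing notes) and deposited raw counts per gene symbol. The counting program, annotation and use of strand are not given in the sources used here. Nothing says how mice were assigned to replicate numbers, and each library was taken as 1 mouse; if mice were pooled or repeated, p-values measure only the spread between libraries. Replicates differed from each other by more than sampling noise (chi-square per degree of freedom of 14.5 or more).

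Genes were kept by filterByExpr at a minimum count of 10, which left 14864 genes and 98.1% to 99.9% of each library's counts. CPM were scaled by TMM factors. MGL KO was compared with WT by the quasi-likelihood test of edgeR 4.0.16 (R 4.3.3), with Benjamini-Hochberg adjustment over all tested genes at 0.05. Alternatives were the exact test of edgeR, which the study's methods name, DESeq2 1.42.0, limma-voom (limma 3.58.1) with quality weights, other scalings and filters, the replicate number as a block, muscle or basal squamous markers as a covariate, a length and GC correction, and leaving out each library. Intervals are at 95%. SDs of log2 CPM used a pseudocount of 0.5. A count of 0 allows up to 3 counts, which covers counting error only. The tests were checked on simulated data.

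Coding sequences came from GENCODE release 39 on GRCm39, and 75-base windows of them were searched for in the whole genome. The 85 genes and the lists were chosen with earlier results of these data known. Named genes were Mgll, members that passed, the 5 largest rises and falls, up to 10 members without overlap, the paralog pairs, the stalk, Rpsa, Rps6, Rpl5, Rpl11, Rps27a, the 5 highest levels per length, and fixed genes of the lists, with genes of the lists that passed. Rps3, Rps4x and the unadjusted calls of the lists were named after their values were seen. Items withheld from this text are not reported here.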

Additional observations from a re-analysis of the deposited data

Results flagged for a closer look

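Within the groups of 4 libraries, the gap of the highest or lowest library to the nearest other was compared with the group's range for the named genes and the sums (74 groups). In 7 groups 1 library stood apart, where chance gives about 1 in 20, or 3.7. The Rpl3l to Rpl3 ratio of 0.947 in WT replicate 3 was set against 0.389 in the next WT library, and the basal squamous markers summed to 4032 CPM there against 5574 CPM in the next. Rps27l stood at 57.9 CPM in MGL KO replicate 2 against 40.3 CPM in the next MGL KO library. WT replicate 2 had 13.6 CPM of Rps4l against 10.2 CPM and 1.03 CPM of Rps3a3 against 0.526 CPM. In MGL KO replicate 4 the leukocyte markers summed to 1689 CPM against 407 CPM, and the airway ciliated markers to 1595 CPM against 909 CPM.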

How the results depend on the processing

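No ribosomal protein gene was called in any of the 13 other settings or in any of the 8 fits that left out 1 library. The number of genes called among all tested, 7, was 65 with the exact test, 137 with DESeq2, 25 with limma-voom, 22 with the skeletal muscle covariate, 15 with the basal squamous covariate, and 2 each without the filter, with the length and GC correction and with the replicate block. It was 2 to 5 when 1 library was left out. The replicate numbers did not pair the libraries, since the correlations of same-numbered libraries were -0.14, -0.28, -0.15 and 0.07, and the block left the median log2 fold change of the 85 genes at -0.03. That median lay between -0.08, with library size alone, and -0.01 over the other settings, and between -0.10, without MGL KO replicate 2, and 0.04 when 1 library was left out. The summed expression difference, -391 CPM, lay between -2187 and 1094 CPM when 1 library was left out and between -1680 and -183 CPM with other scalings. With 1 library left out, the log2 fold change of Rps27l lay between -0.027 and 0.23, that of Rpl3 between -0.29 and 0.014, and the difference of the log2 ratio of Rpl3l to Rpl3 between -0.74 and 0.054. The sign changed without MGL KO replicate 2 for both genes and without WT replicate 3 for the ratio. With pairs by replicate number an exact sign-flip test gave p = 0.625. After the data were seen, other scalings were added for the count of genes with the larger SD in MGL KO (78), which was 51 with library size alone, 77 or 78 with the others, and 72 to 84 when 1 library was left out. The log2 difference of Rpl3l relative to the summed skeletal muscle markers, -0.40, was -0.60 against Acta1 alone, -0.21 against Myh1, -0.85 against Myh2, 1.05 against Myh4, -1.42 against Myh7, -0.24 against Tnnc2, -0.28 against Atp2a1, -0.83 against Pvalb, and -0.48 to -0.37 against the other 6. The causes were not tested.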

Other observations

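Rpl3l was set against the skeletal muscle markers of its own library, a ratio that was chosen after the values were seen and that scaling cannot change. Per 1000 CPM of the 14 summed markers, Rpl3l had 2.75, 3.24, 2.83 and 3.02 CPM in MGL KO replicates 1 to 4 and 3.77, 3.86, 4.26 and 3.74 CPM in the WT replicates. All MGL KO libraries lay below all WT libraries, with means of 2.96 ± 0.217 and 3.91 ± 0.242 CPM (SD, n = 4). Because the ratio was picked for this pattern, no test is given. Against single markers, all MGL KO libraries lay below all WT libraries for only 5 of the 14. Ratios to single markers all share Rpl3l, whose own log2 fold change was -0.39, so their directions are not separate evidence. The difference on the log2 scale ran from -1.42 against Myh7 to 1.05 against Myh4, a fast myosin heavy chain whose own log2 fold change was -1.33 (unadjusted call only).

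The sum of Rpl3 and Rpl3l was 826, 681, 730 and 709 CPM in MGL KO and 891, 873, 734 and 906 CPM in WT, and the groups overlapped.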
